A study of Mus musculus with 74 samples.

Results

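Epithelial cells move sodium, potassium, chloride, bicarbonate, sulfate and phosphate through a small number of large gene families, and the genes described here are the members of those families. They are the symbols that begin with Slc4a, Slc8a, Slc9a, Slc12a, Slc13a, Slc26a or Slc34a, with Atp1a or Atp1b, or with Fxyd, plus Cftr. The symbols alone chose them, with no measured value, and the choice gave 70 of the 24015 gene symbols in the count table. They comprise 8 Na,K-ATPase subunits, 7 FXYD proteins, 11 Na/H exchangers and their scaffolds, 11 Slc26 anion exchangers and channels, 10 Slc4 bicarbonate transporters, 9 Slc12 cation-chloride cotransporters, 5 Slc13 sulfate and carboxylate transporters, 3 Slc34 phosphate transporters, 3 Na/Ca exchangers and Cftr. The remaining 2 are symbols that the pattern catches without being transporters, the antisense RNA Slc13a2os and the adaptor gene Slc4a1ap.

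The study measured RNA in mouse gut epithelium as it takes on its regional identity, and asked what happens when the intestinal transcription factor Cdx2 is deleted at different ages. Wild-type (WT) CD1 embryos gave forestomach, hindstomach and small intestine at embryonic day (E) 12, 14 and 16, and small intestine at E18, with 2 libraries per organ and age. The small intestine samples at E12 and E14 are labelled midgut epithelium. The 3 deletion groups came from embryos of mixed B6;129 background. Cdx2f/f; Shh-Cre embryos, which received no treatment, were collected at E16 and are labelled as deleted at E10 (3 libraries). Cdx2f/f; Villin-Cre embryos, exposed to 5 mg tamoxifen by oral gavage, were collected at E16 (labelled as deleted at E13, 2 libraries) or at E18 (labelled as deleted at E15, 2 libraries). Shh-Cre and Villin-Cre act in the gut epithelium. Adult ileal villi came from B6;129 mice: 2 Cdx2f/f controls without Cre, injected with sunflower oil, and 2 Cdx2f/f; Villin-Cre mice injected with 1 mg tamoxifen on 5 days. Controls and knockouts in the adult thus both carried floxed Cdx2 alleles. They differed in Cre and in tamoxifen, which cannot be told apart from the deletion. The embryonic deletion groups and their WT controls also differed in strain, in Cre and, for Villin-Cre, in tamoxifen, and these cannot be told apart from the deletion.

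As background, the Na,K-ATPase in the basolateral membrane pumps sodium out of the cell and sets the gradient that other transporters use. In the apical membrane of the intestine, Slc9a3 exchanges sodium for protons beside the chloride/bicarbonate exchangers Slc26a3 and Slc26a6, so that together they absorb salt, while Cftr lets chloride out and Slc12a2 refills it from the basolateral side. In the stomach, the H,K-ATPase secretes acid with the help of basolateral exchangers such as Slc9a4 and Slc4a2. Slc13 and Slc34 proteins carry sulfate, dicarboxylates and phosphate into the cell with sodium.

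Libraries held 5970227 to 62463167 counts, with a median of 21910062. Levels are given as CPM (counts scaled to library size) after scaling by trimmed mean of M-values (TMM). The adult libraries were scaled and tested apart, so that adult and embryonic levels are not compared. Gene lengths were not used here, so levels are not compared between genes. A gene was called when edgeR's quasi-likelihood test gave an adjusted p below 0.05 (Benjamini-Hochberg, over all genes tested) and a log2 fold change of at least 1 in either direction. Of the 70 genes, 64 passed the filter on low counts among embryonic libraries and 44 among adult ones, and Atp1b4 and Slc26a5 had at most 3 counts in every library. No label says that libraries of a group came from separate animals, and p-values then measure only the spread between these samples. That spread was estimated jointly from all libraries of a fit, although replicates differed more in some groups than in others.

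Cdx2 itself was 196 and 218 CPM in WT at E16 and 17.4, 14.5 and 27.5 CPM in the group labelled as deleted at E10. It was 213 and 217 CPM in those labelled deleted at E13, 388 and 371 CPM against 200 and 206 CPM in WT in those labelled deleted at E15, and 472 and 462 CPM against 242 and 248 CPM in the adult. Counts per gene do not show which exons were read, so for these 3 groups the counts do not check the labels, and they are named by their labels throughout. Embryonic libraries up to E16 were sorted for Epcam, whereas E18 and adult villi were released with EDTA and not sorted. Blood markers made up 1.59 to 2.03% of counts in forestomach at E16, 0.129 to 0.181% in hindstomach, 0.0201 to 0.0207% in small intestine and at most 0.000883% in the E16 deletion groups. Markers of mesenchyme and muscle made up 2.72 to 3.26%, 0.896 to 0.932% and 0.158 to 0.176% of counts in the same 3 organs, 0.013 to 0.0197% in the group labelled as deleted at E10, 0.00443 to 0.00459% in those labelled deleted at E13 and 0.000311 to 0.000423% in WT small intestine at E18. In bulk samples, fewer cells of a type and less RNA per cell cannot be told apart.

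**Figure D1:**
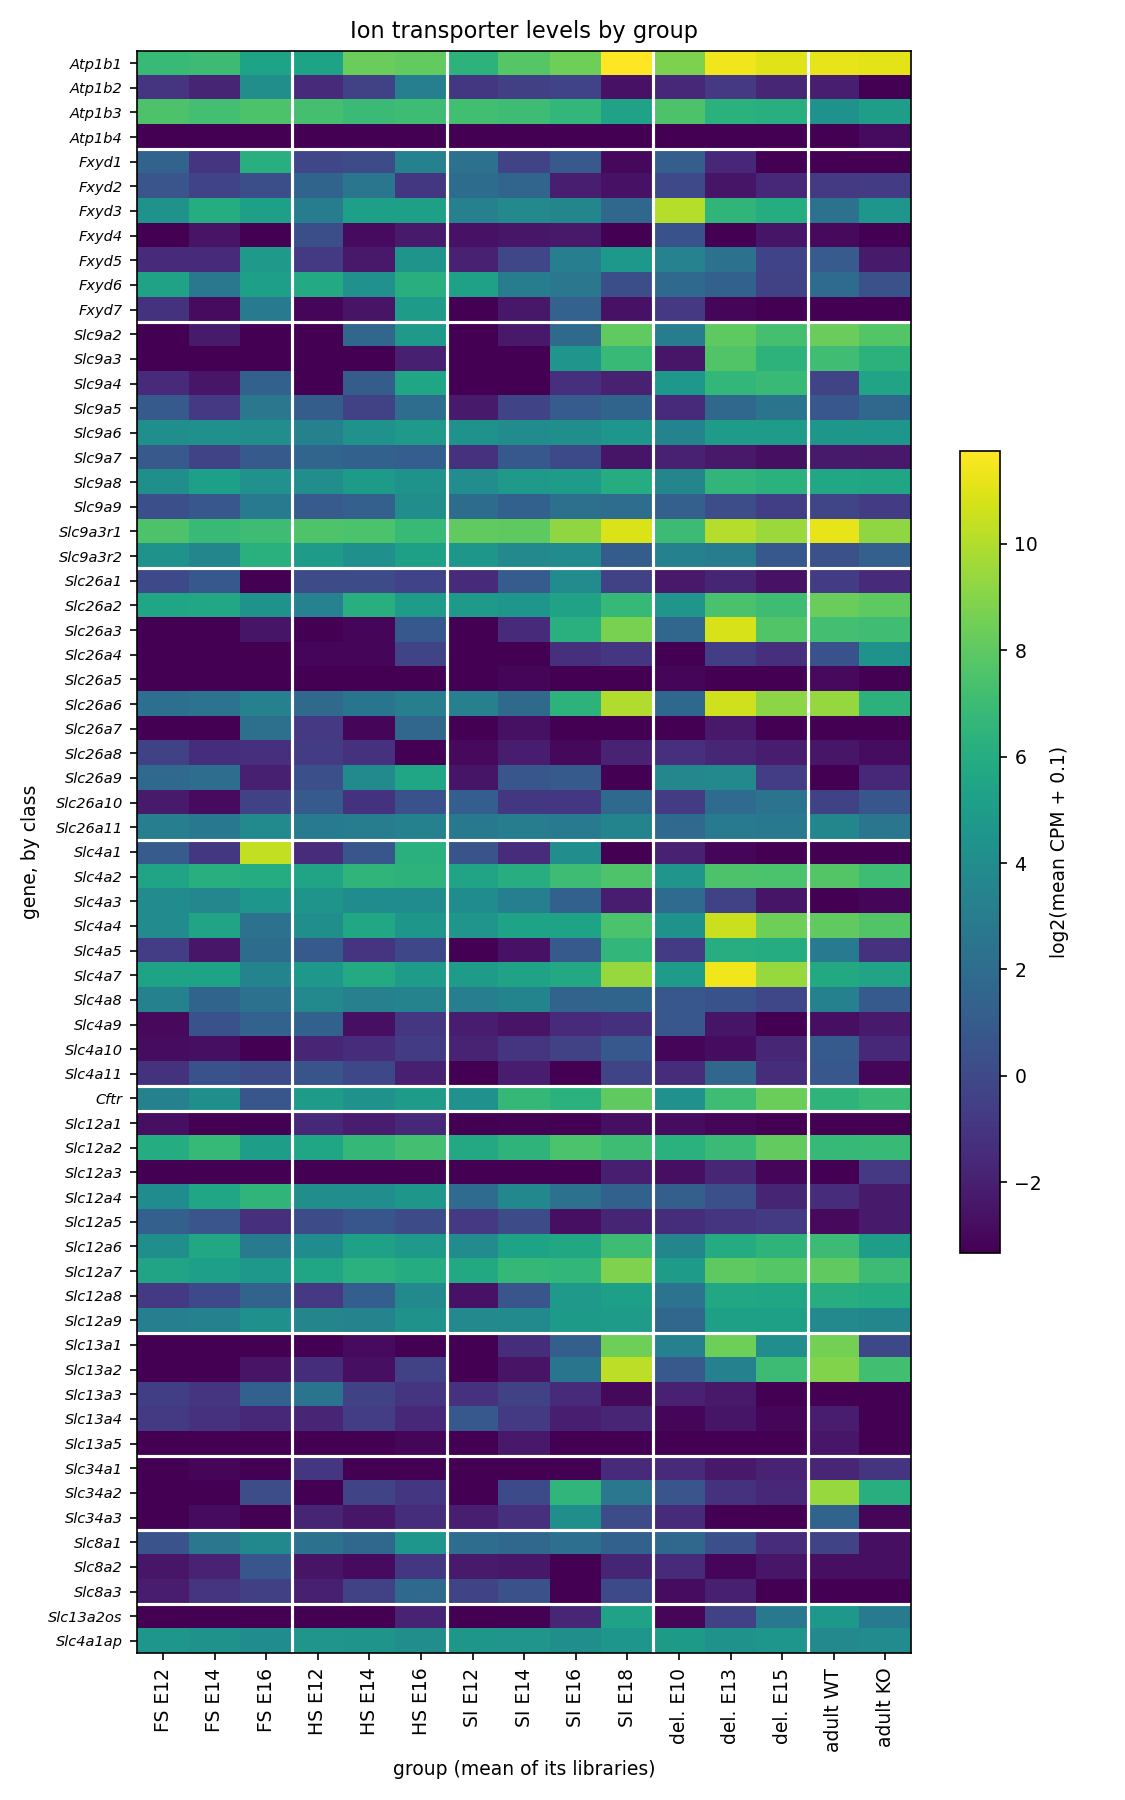
Heat map of log2(mean CPM + 0.1) for 65 of the 70 genes (rows, grouped by class, white lines between classes) in 15 groups (columns: FS forestomach, HS hindstomach, SI small intestine, del. labelled day of Cdx2 deletion). Each cell is the mean of the group's 2 libraries (3 for del. E10). The adult columns were scaled apart. Slc9a3, Slc26a3 and Slc34a2 are low in every column up to E14 and higher in small intestine at E16.

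The first question was how ion transport genes change as the small intestine matures. Between E12 and E14 the members that rose included the pump's beta subunit Atp1b1 and the chloride channel Cftr. Between E14 and E16 the apical exchangers Slc9a3, Slc26a3 and Slc26a6 and the phosphate carriers Slc34a2 and Slc34a3 rose, several from near 0. Between E16 and E18 Atp1b1, Cftr and the bicarbonate carriers Slc4a4 and Slc4a7 rose, and the sulfate and dicarboxylate carriers Slc13a1 and Slc13a2 went from a few CPM to 342 CPM or more.

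The shares of counts from cell type markers also differed between these ages. The 6 epithelial markers made up 0.386 to 0.393% at E12, 0.506 to 0.522% at E14, 0.975 to 0.994% at E16 and 0.61 to 0.624% at E18. The 6 immune markers made up 0.00153 to 0.0016%, 0.00616 to 0.00705%, 0.0336% and 0.0559 to 0.0587% at the same ages. The 11 mesenchyme and muscle markers made up 0.0127 to 0.0138% at E12, 0.0322 to 0.0394% at E14, 0.158 to 0.176% at E16 and 0.000311 to 0.000423% at E18. Endothelial, blood and neural markers were lower at E14 than at E12, higher at E16 and lower again at E18. The 4 endothelial markers went from 0.000895 to 0.00261% at E12 to 0.00022 to 0.00024%, 0.00439 to 0.00502% and 0.000246 to 0.000338%. The 9 blood markers went from 0.0103 to 0.0129% at E12 to 0.00594 to 0.00649%, 0.0201 to 0.0207% and at most 0.000149%, and the 7 neural markers from 0.00382 to 0.00396% to 0.00255 to 0.00275%, 0.0082 to 0.00971% and 0.000664 to 0.00071%. The part of these shares in the changes of each step, rises and falls, was not tested, nor was that of the change in collection at E18.

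In counts, 10 of 64 members were higher and 4 lower at E14 against E12, beside 11.3% of all genes called higher and 4.89% called lower (16.2% either way). At E16 against E14, 21 members were higher and 5 lower, beside 13.7% and 11.9% of all genes (25.6% either way). At E18 against E16, 22 members were higher and 13 lower, beside 20.1% and 22.1% of all genes (42.1% either way). The median log2 fold change of tested members was 0.74, 0.44 and 0.46 in the 3 steps, and 0.07, -0.08 and -0.05 for all genes. With genes at 3 counts or fewer in all libraries of a group set to the change that this limit allows, the member medians were 0.31, 0.44 and 0.31. When only the 4 libraries at E12 and E14 were fitted, the count was 3 and the calls given below for Fxyd1, Slc12a8, Slc26a1, Slc26a6 and Slc26a9 in that step were lost (adjusted p = 0.0809 to 0.379). The E14 against E12 count was 26 without small intestine E12 replicate 2, and the E16 against E14 count was 16 without small intestine E14 replicate 1.

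Among the Na,K-ATPase subunits, Atp1b1, the beta subunit that brings the pump to the membrane, was 81.7 and 88.9 CPM at E12, 222 and 219 at E14, 341 and 328 at E16 and 3380 and 3460 at E18. It rose by 1.37 ± 0.09 from E12 to E14 and by 3.35 ± 0.1 from E16 to E18 on the log2 scale (adjusted p = 1.74e-08 and 1.15e-14). Atp1b3, another beta subunit, went the other way in the last step, from 96 and 108 CPM to 41.2 and 42.2 CPM, with a log2 fold change of -1.29 ± 0.14.

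FXYD proteins are small membrane proteins that tune the pump, and none of the 7 was called higher at E14 against E12 or at E18 against E16. Between E14 and E16, Fxyd5, also called dysadherin, rose from 0.939 and 0.671 CPM to 6.69 and 10.4 (3.38 ± 0.87, adjusted p = 0.0045), and Fxyd7 rose from 0.0816 and 0.118 CPM to 2.26 and 2.89 (4.68 ± 1.0, adjusted p = 0.00126). At E18 Fxyd5 was 23.8 and 29.2 CPM, above both E16 libraries, a log2 difference of 1.63 ± 0.8 that was not called (adjusted p = 0.0917). Fxyd6 fell from 35.9 and 42.9 CPM at E12 to 8.3 and 8.16 at E14, a log2 fold change of -2.26 ± 0.21 (adjusted p = 5.98e-07). Fxyd1 was 4.77 and 5.29 CPM at E12, 0.925 and 0.552 at E14, 1.06 and 2.4 at E16 and at most 0.0549 at E18. Its first fall was -2.73 ± 0.52 (adjusted p = 0.00085), and its level at E18 was at least 8.39-fold lower than at E16. Fxyd2 fell from 3.1 and 2.76 CPM at E14 to 0 and 0.273 at E16, a log2 fold change of -4.4 ± 1.22 (adjusted p = 0.00742) that was not called without E16 replicate 1 (adjusted p = 0.0742). Fxyd3 stayed between 7.71 and 15.4 CPM from E12 to E16 and fell to 2.79 and 3.9 CPM at E18 (-1.79 ± 0.27, adjusted p = 1.83e-05). The fall of Fxyd1, Fxyd6 and Fxyd7 between E16 and E18 came with a fall of the mesenchyme and muscle markers given above and with a change in how cells were collected; their part in the result was not tested.

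Of the apical Na/H exchangers, Slc9a3, the main sodium absorber of the intestinal brush border, was 0 CPM in both libraries at E12 and at E14. It was 26.4 and 19.8 CPM at E16 and 120 and 117 at E18. The E16 level was at least 291-fold that at E14 (adjusted p = 3.51e-07), and the further rise to E18 was 2.36 ± 0.39 (adjusted p = 0.00023), which DESeq2 did not call (adjusted p = 0.66). Slc9a2, a second apical exchanger, rose from 0.136 and 0.0789 CPM at E14 to 5.69 and 1.64 at E16 (4.89 ± 0.59) and to 269 and 264 at E18 (6.17 ± 0.44, adjusted p = 1.35e-08). Slc9a3r1, which encodes the scaffold NHERF1 that anchors Slc9a3 and Cftr, was between 248 and 279 CPM at E12 and E14 and rose to 588 and 601 at E16 and 1900 and 1950 at E18.

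Among Slc26 proteins, the chloride/bicarbonate exchanger Slc26a3 was at 0 CPM at E12, 0.177 and 0.316 at E14, 83.2 and 68.8 at E16 and 417 in both libraries at E18. The rise from E14 to E16 was 8.42 ± 0.31 on the log2 scale (adjusted p = 6.8e-11), and that from E16 to E18 was 2.46 ± 0.2. Slc26a6, which exchanges chloride for bicarbonate or oxalate, had 13.5 and 5.13 CPM at E12, 3.25 and 3.9 at E14, 82.7 and 88.5 at E16 and 1020 and 984 at E18. Its early fall of -1.39 ± 0.34 was not called without E12 replicate 1 (adjusted p = 0.226) or E14 replicate 1 (adjusted p = 0.0599), whereas it rose by 4.6 ± 0.36 and 3.55 ± 0.33 in the later steps (adjusted p = 1.37e-08 and 3.6e-08). Slc26a9, a chloride channel and exchanger of gastric and airway epithelium, went from 0 and 0.159 CPM at E12 to 1.55 and 1.58 at E14 (4.18 ± 0.79), and from 2.57 and 1.09 at E16 to 0 in both libraries at E18, at least 8.88-fold lower. Slc26a1, a sulfate carrier, was 0 and 0.51 CPM at E12, 2.01 in both libraries at E14, 18.7 and 12.3 at E16 and 0.575 and 0.823 at E18. Its first rise was 2.94 ± 1.01 (adjusted p = 0.035) and was not called without E12 replicate 1, E14 replicate 1 or E14 replicate 2 (adjusted p = 0.0866 to 0.103).

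Cftr, the cAMP-regulated chloride channel mutated in cystic fibrosis, was 16.7 and 22.7 CPM at E12, 106 and 99.6 at E14, 78.1 and 79 at E16 and 261 and 263 at E18. It rose from E12 to E14 (2.38 ± 0.22, adjusted p = 5.25e-07) and from E16 to E18 (1.74 ± 0.21, adjusted p = 1.17e-06) and was not called between. Among the bicarbonate carriers, Slc4a7 went from 51.7 and 58.2 CPM at E16 to 687 and 705 at E18 (3.66 ± 0.27, adjusted p = 1.32e-09), and the basolateral cotransporter Slc4a4 from 41 and 43.7 to 179 and 180. Slc4a1, the anion exchanger of red blood cells, was 18.4 and 14.6 CPM at E16 and 0 at E18, at least 80-fold lower, as blood markers went from 0.0201 and 0.0207% of counts to at most 0.000149%; their part in the result was not tested. The basolateral Na-K-2Cl cotransporter Slc12a2 was 72.3 and 37.3 CPM at E12, 81 and 99.5 at E14, 179 and 173 at E16 and 137 and 128 at E18, and no step reached the fold minimum (0.72 ± 0.23, 0.96 ± 0.23 and -0.41 ± 0.23). Slc12a8, an atypical family member, was at most 0.0676 CPM at E12, 1.65 and 1.3 at E14, 33.4 and 24 at E16 and 35.4 and 37.1 at E18. Its E14 level was at least 15-fold that at E12 (adjusted p = 0.000655). The neuronal K-Cl cotransporter Slc12a5 went from 1.31 and 0.789 CPM at E14 to 0.101 and 0 at E16, at least 6.65-fold lower, and was not called without E16 replicate 2 (adjusted p = 0.0643).

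**Figure D2:**
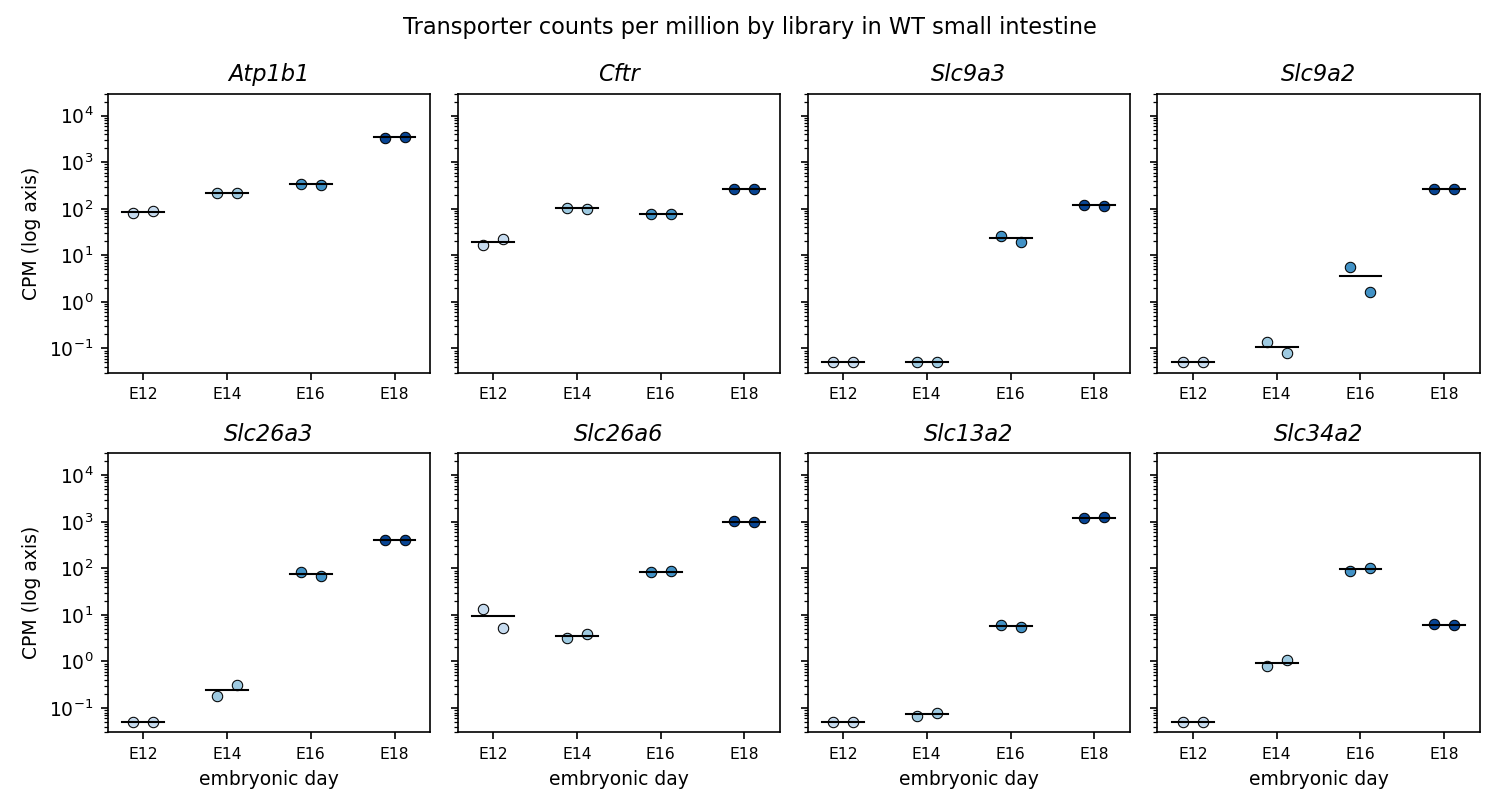
CPM (log axis) of 8 transporter genes in WT small intestine by embryonic day. Each point is 1 library, each bar is the mean of the 2 libraries of an age, and libraries at 0 are drawn at 0.05. Slc9a3 is at 0 until E14, Slc13a2 reaches 1190 and 1250 CPM at E18, and Slc34a2 is at 89.3 and 102 CPM at E16.

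Of the Slc13 carriers, Slc13a2, the dicarboxylate and citrate carrier of the brush border, was 0.068 and 0.0789 CPM at E14, 5.99 and 5.46 at E16 and 1190 and 1250 at E18. The step to E16 was 6.23 ± 0.79 and that to E18 was 7.73 ± 0.56 on the log2 scale (adjusted p = 8.11e-09). Slc13a1, the sodium-sulfate cotransporter, went from 2.52 and 1.91 CPM at E16 to 347 and 342 at E18 (7.27 ± 0.97, adjusted p = 2.77e-05). Slc13a2os, listed as antisense to Slc13a2, went from 0.403 and 0 CPM to 40.1 and 40.2 (7.57 ± 1.28, adjusted p = 0.000297 in edgeR and 0.293 in DESeq2). The strand setting of the counting is not given in the sources used here, so reads of the overlapping pair cannot be told apart.

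Of the phosphate carriers, Slc34a2 was 0.789 and 1.06 CPM at E14, 89.3 and 102 at E16 and 6.25 and 5.98 at E18, with log2 changes of 6.7 ± 1.56 (adjusted p = 0.00309) and -3.97 ± 1.37 (adjusted p = 0.0225). The second change was not called by DESeq2 (adjusted p = 0.207), nor without any 1 of the 4 libraries (adjusted p = 0.0719 to 0.121). Slc34a3 had 0.299 and 0.316 CPM at E14, 19.7 and 16.9 at E16 and 0.74 and 1.32 at E18. Of the Na/Ca exchangers, Slc8a3 went from 0.762 and 1.7 CPM at E14 to 0 in both E16 libraries, at least 7.8-fold lower (adjusted p = 0.0433), and was not called without any 1 of those 4 libraries (adjusted p = 0.065 to 0.164), with a replicate block (adjusted p = 0.0614) or with RLE scaling.

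At E16 the 3 organs were compared, which asks where along the gut each transporter is used. The exchangers of intestinal salt absorption were low in both stomach regions, whereas the hindstomach had Slc9a4, Slc9a2 and Slc26a9 at levels above the small intestine. Cftr was highest in small intestine, lower in hindstomach and near 0 in forestomach. Forestomach had 13 of 64 members higher and 20 lower than small intestine, beside 18.6% and 16.4% of all genes (35.0% either way), a split that became 20 higher and 18 lower with DESeq2 and 18 higher and 19 lower with RLE scaling, which moved the median of all genes from 0.0 to 0.19. Hindstomach had 19 higher and 11 lower than small intestine, beside 17.5% and 8.1% of all genes (25.7% either way). Forestomach had 2 higher and 14 lower than hindstomach, beside 6.27% and 13.8% of all genes (20.1% either way), where RLE scaling moved the median of all genes from -0.13 to 0.01. The median log2 fold change of members was -0.02, 0.56 and -0.75 in that order, or 0.0, 0.46 and -0.13 with genes at their bound. With only the 4 stomach libraries fitted, 25 members were called between forestomach and hindstomach instead of 16.

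Slc9a3 was 0 in both forestomach libraries and 0 and 0.304 CPM in hindstomach, beside 26.4 and 19.8 in small intestine. It was at least 50.1-fold lower in forestomach and lower by -7.19 ± 0.6 in hindstomach (edgeR adjusted p = 3.92e-06 and 1.73e-06), calls that DESeq2 did not make (adjusted p = 0.0591 and 0.157). Slc26a3 was 0.154 and 0 CPM in forestomach and 2.22 and 1.13 in hindstomach, beside 83.2 and 68.8 in small intestine. The forestomach was at least 165-fold lower than small intestine and at least 3.63-fold lower than hindstomach, and the hindstomach was lower than small intestine by -5.5 ± 0.26 (adjusted p = 6.24e-10). Slc34a2 was 0 and 2.14 CPM in forestomach and 0 and 0.826 in hindstomach, the latter lower than small intestine by -7.83 ± 1.68 (adjusted p = 0.00191). Slc34a3 and Slc26a1 were 0 in both forestomach libraries, at least 39.7-fold and 33.6-fold lower than in small intestine. Slc13a1 was 0 in hindstomach, at least 16.8-fold lower (adjusted p = 0.0198), and was not called without hindstomach replicate 1 or 2 or small intestine replicate 1 (adjusted p = 0.0687 to 0.084).

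Slc9a4, a basolateral Na/H exchanger of gastric parietal cells, was 52.3 and 45.2 CPM in hindstomach, 1.23 and 3.67 in forestomach and 0 and 0.655 in small intestine. Hindstomach exceeded small intestine by 7.24 ± 0.91 on the log2 scale (adjusted p = 1.23e-05). Slc26a9 was 49.9 and 42.6 CPM in hindstomach, 2.57 and 1.09 in small intestine and 0.309 and 0 in forestomach. It was higher in hindstomach than in small intestine by 4.65 ± 0.65 (adjusted p = 2.01e-05) and at least 100-fold higher than in forestomach. Slc9a2 had 29.4 and 26.3 CPM in hindstomach and 0 in forestomach, which was at least 60.4-fold lower, and exceeded small intestine by 2.91 ± 0.4. Slc26a7, a chloride/bicarbonate exchanger of parietal cells and kidney, was 2.22 and 3.74 CPM in hindstomach, 2.01 and 7.04 in forestomach and 0 in small intestine, so that forestomach was at least 28.7-fold and hindstomach at least 18.9-fold above it. The hindstomach call was lost without either small intestine library (adjusted p = 0.0747 and 0.0698).

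Cftr was 78.1 and 79 CPM in small intestine, 29.1 and 33 in hindstomach and 0.772 and 2.3 in forestomach, with no overlap between organs. Hindstomach was lower than small intestine by -1.34 ± 0.21, and forestomach was lower than hindstomach by -4.33 ± 0.32 (adjusted p = 6.24e-05 and 6.01e-09). Atp1b1 and Slc12a2 had the lowest level in forestomach, with 45.1 and 40.6 CPM for Atp1b1 and 36.6 and 30.2 for Slc12a2. Against small intestine these were -2.97 ± 0.1 and -2.4 ± 0.25 on the log2 scale (adjusted p = 1.37e-13 and 1.78e-07). Fxyd3 was higher in both stomach regions than in small intestine, at 40 and 33.5 CPM in forestomach and 37.3 and 37.1 in hindstomach. The epithelial markers made up 0.164 to 0.17% of counts in forestomach and 0.975 to 0.994% in small intestine; their part in the forestomach results was not tested.

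Several members were higher in stomach, where the shares of markers of other cell types also differed. Slc4a1 was 931 and 1730 CPM in forestomach, 65.2 and 88.5 in hindstomach and 18.4 and 14.6 in small intestine, with log2 differences from small intestine of 6.33 ± 0.63 and 2.22 ± 0.53. The organs have the same order by the share of counts from the 9 blood markers, of which the globin genes Hbb-bt, Hbb-bs, Hba-a1 and Hba-a2 had at most 3 counts in each RNA library, and the part of blood in the result was not tested. Fxyd1 was 68.7 and 68 CPM in forestomach and 9.27 and 10.5 in hindstomach, a difference of 2.79 ± 0.51 (adjusted p = 0.000352). Slc8a2 was 1.85 and 1.22 CPM in forestomach and 0 in small intestine, at least 9.77-fold higher, and was not called without forestomach replicate 1 or either small intestine library (adjusted p = 0.0652 to 0.125). Slc8a3 was 1.06 and 5.83 CPM in hindstomach, at least 21.9-fold higher than in small intestine, and was not called without hindstomach replicate 2 or either small intestine library (adjusted p = 0.0852 to 0.105). The beta subunit Atp1b2, known from glia and neurons, was 14.8 and 19.4 CPM in forestomach, 9.58 and 8.66 in hindstomach and 0.604 and 0.819 in small intestine. Neural markers made up 0.00715 to 0.0103%, 0.117 to 0.12% and 0.0082 to 0.00971% of counts in the same order of organs. Mesenchyme and muscle markers were higher in both stomach parts than in small intestine. The part of neural, mesenchyme and muscle markers in these results was not tested.

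**Figure D3:**
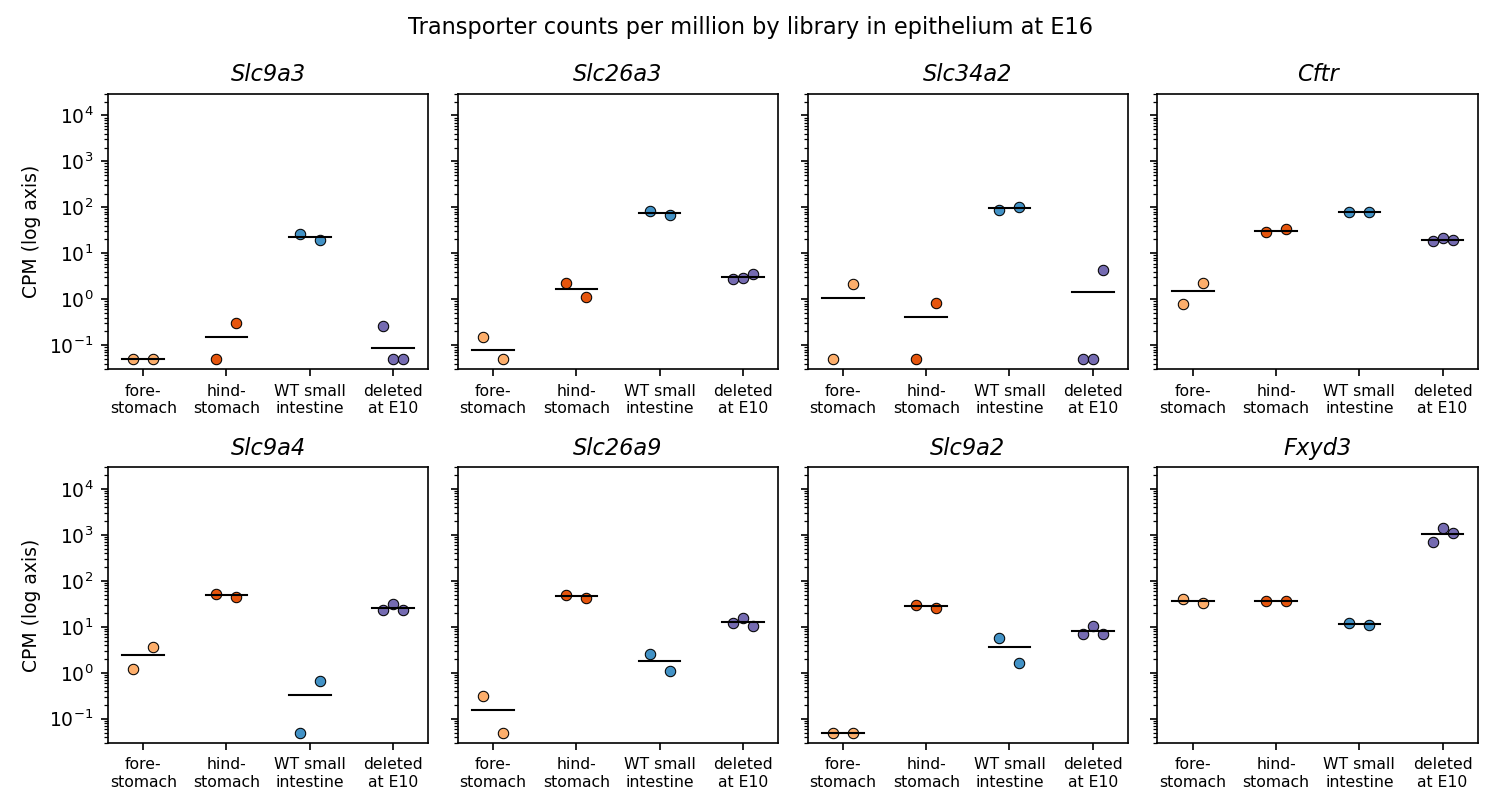
CPM (log axis) at E16 of 8 transporter genes in forestomach (FS), hindstomach (HS), WT small intestine (WT SI) and small intestine labelled deleted for Cdx2 at E10. Each point is 1 library, each bar is a group mean and libraries at 0 are drawn at 0.05. Slc9a4 and Slc26a9 are high in HS and, at 23 to 31.9 CPM and 10.4 to 15.5 CPM, above WT SI in the deletion libraries.

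The next question was what the epithelium of E16 embryos looks like when Cdx2 is deleted early or late. With the label of deletion at E10, Slc9a3, Slc26a3 and Slc26a6 were lower than in WT, and Fxyd3 and Slc9a4 were higher. With the label of deletion at E13, Atp1b1, Slc26a3, Slc26a6, Slc9a3 and Slc4a4 were higher than in WT, and Slc34a2 and Slc34a3 were lower. Mean levels of each of these genes moved the same way from E16 to E18 in WT. Fxyd3 and Slc26a9 were higher with the E13 label, but lower at E18 than at E16 in WT. Libraries with the E13 label were not tested against WT at E18. Immune markers made up 0.131 to 0.135% of counts with the E13 label, 0.0336% in WT and 0.0063 to 0.0196% with the E10 label. In the same order, endothelial markers made up 0.000147 to 0.000198%, 0.00439 to 0.00502% and 8.59e-05 to 0.000296%. Neural markers made up 0.000933 to 0.000989%, 0.0082 to 0.00971% and 0.00548 to 0.00672%, and epithelial markers 0.884 to 0.901%, 0.975 to 0.994% and 0.982 to 1.87%. The part of these shares in these results was not tested. Both deletion groups were compared with the same 2 WT libraries at E16, and their direct contrast is the test of the difference between them.

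Labelled deletion at E10 went with 6 members higher and 27 lower of 64, beside 23.9% and 27.6% of all genes (51.5% either way). Labelled deletion at E13 went with 20 higher and 9 lower, beside 18.7% and 20.8% of all genes (39.5% either way). Set directly against each other, 8 members were higher and 29 lower in the group with the E10 label, beside 28.1% and 29.3% of all genes (57.4% either way). Member medians were -1.06, 0.74 and -1.5 on the log2 scale, or -0.84, 0.3 and -0.56 with genes at their bound, and all-gene medians were -0.1, -0.05 and 0.0. By class, 5 of 11 Na/H exchangers and scaffolds, 5 of 10 Slc26 genes, 5 of 8 Slc12 genes and 4 of 10 Slc4 genes were lower in the E10 contrast, and 2, 1, 0 and 0 were higher. In the E13 contrast 5 of 11, 5 of 10, 2 of 8 and 4 of 10 of the same classes were higher, and 0, 1, 0 and 2 were lower.

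The largest falls among members in the direct contrast were those of Slc26a3, Slc26a6 and Slc9a3, and the 250 bases before the RefSeq transcript start of each (build GRCm38.p6) are shown because these 3 genes moved together. Capitals mark matches to the motifs searched. The windows of Slc26a6 and Slc9a3 held no match, and RefSeq lists the whole gene of Slc26a3 from 5076 bases and that of Slc9a3 from 35157 bases upstream of the window's end.
Slc26a3 promoter, chr12:31437969-31438218, + strand: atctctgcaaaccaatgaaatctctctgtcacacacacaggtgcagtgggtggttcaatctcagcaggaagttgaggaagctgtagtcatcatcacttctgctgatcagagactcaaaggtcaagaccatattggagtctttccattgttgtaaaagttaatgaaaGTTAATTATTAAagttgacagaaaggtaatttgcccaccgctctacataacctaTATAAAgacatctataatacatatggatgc
Slc26a6 promoter, chr9:108853793-108854042, + strand: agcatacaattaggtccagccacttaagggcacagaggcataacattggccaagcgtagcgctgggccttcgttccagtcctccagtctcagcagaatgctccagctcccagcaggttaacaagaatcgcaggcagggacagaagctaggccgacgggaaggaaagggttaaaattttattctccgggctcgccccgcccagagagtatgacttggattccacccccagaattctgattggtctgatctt
Slc9a3 promoter, chr13:74121163-74121412, + strand: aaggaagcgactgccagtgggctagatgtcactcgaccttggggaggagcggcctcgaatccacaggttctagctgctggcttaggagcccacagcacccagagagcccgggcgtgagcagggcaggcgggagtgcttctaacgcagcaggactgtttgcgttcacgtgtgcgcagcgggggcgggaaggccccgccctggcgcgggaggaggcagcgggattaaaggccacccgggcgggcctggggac

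The motifs were searched on both strands of the 250-base windows in 32851 RefSeq promoters. The CDX-type motif TTTATNG was in 9.81% of all windows and in none of the 6 found in the table among the 8 members called lower in the E10 and higher in the E13 contrast. Of the 51 members found in the table it was in the windows of Slc12a3, Slc12a8, Slc13a5, Slc26a10 and Slc26a4. The HNF4-type motif CAAAGTCCA (0.384% of all windows) and the HNF1-type palindrome (0.00913%) were in no member window. The HNF1-type palindrome without its last base, in 0.0609% of windows, was in that of Slc26a3, and the TATA box TATAAA, in 12.4% of windows, was in those of 10 members including Slc26a3. These last 2 were chosen after the sequences were seen, and TTTATNG can overlap the reverse of TATAAA.

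Slc26a3 was 2.81, 2.94 and 3.46 CPM with the E10 label and 1880 and 1780 CPM with the E13 label, on either side of 83.2 and 68.8 CPM in WT. Against WT the log2 fold changes were -4.65 ± 0.21 and 4.59 ± 0.22, and directly between the deletion groups -9.24 ± 0.24 (adjusted p = 4.27e-14). Slc26a6 was 2.27, 4.61 and 2.84 CPM and 1640 and 1620 CPM, on either side of 82.7 and 88.5, with log2 fold changes of -4.73 ± 0.34 and 4.25 ± 0.34 and a direct difference of -8.98 ± 0.37 (adjusted p = 1.11e-13). Slc9a3 was 0.267, 0 and 0 CPM and 200 and 196 CPM, on either side of 26.4 and 19.8, with log2 fold changes of -7.61 ± 0.59 and 3.1 ± 0.4 and a direct difference of -10.71 ± 0.57 (adjusted p = 2.84e-09). DESeq2 did not call Slc9a3 against WT in either group (adjusted p = 0.0645 and 0.558). None of the deletion libraries overlapped the WT libraries for these 3 genes.

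The other exchangers and scaffolds of this class did not all follow. The Na/H exchanger Slc9a8 was 13.2, 10.4 and 11 CPM with the E10 label and 95.3 and 95 with the E13 label, beside 36.7 and 25.3 in WT (-1.43 ± 0.19 and 1.62 ± 0.21). Slc9a2 was higher in both, at 7.01, 10.2 and 7.04 CPM and 255 in both libraries, beside 5.69 and 1.64 in WT. Its log2 fold change was 1.13 ± 0.38 in the first, where it was not called without WT replicate 2 (0.5, adjusted p = 0.205) or with only the 2 groups fitted (adjusted p = 0.104), and 6.11 ± 0.44 in the second (adjusted p = 1.63e-08). Slc9a4, at 0 and 0.655 CPM in WT, was 23, 31.9 and 23 CPM with the E10 label and 101 in both libraries with the E13 label (6.33 ± 0.88 and 8.29 ± 0.94, adjusted p = 9.34e-06 and 1.49e-06). Slc9a3r1 was 166, 104 and 121 CPM with the E10 label, beside 588 and 601 in WT (-2.19 ± 0.16 on the log2 scale, adjusted p = 6.39e-10).

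Of the pump and its FXYD partners, Atp1b1 was 464, 407 and 437 CPM with the E10 label, against 341 and 328 in WT, a change of 0.38 ± 0.08 below the fold minimum, and 2760 and 2750 with the E13 label (3.04 ± 0.1, adjusted p = 2.59e-14). The direct difference was -2.66 ± 0.08 (adjusted p = 4.09e-15). Fxyd3 was 712, 1410 and 1090 CPM with the E10 label and 93.5 and 90.1 with the E13 label, against 12.3 and 11.2 in WT. These were log2 fold changes of 6.51 ± 0.28 and 2.97 ± 0.24 (adjusted p = 7.91e-13 and 7.38e-09), and the E10 group exceeded the E13 group by 3.55 ± 0.23. Fxyd4, a kidney and colon family member, had 0.2, 2.6 and 1.11 CPM with the E10 label and 0 with the E13 label, where it was at least 10.1-fold lower (adjusted p = 0.00575).

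Among bicarbonate carriers, Slc4a4 was 19.8, 28.3 and 12.2 CPM with the E10 label and 1510 and 1470 with the E13 label, beside 41 and 43.7 in WT. The first change, -1.06 ± 0.24, was under the fold minimum without E10-labelled replicate 3 (-0.82) and with RLE scaling (-0.92), DESeq2 (-0.92) or a replicate block (-0.82), and the second was 5.14 ± 0.3 (adjusted p = 8.54e-11). Slc4a7 was 2790 and 2700 CPM with the E13 label, beside 51.7 and 58.2 in WT (5.64 ± 0.29, adjusted p = 1.59e-11). Slc4a2, a chloride/bicarbonate exchanger of the basolateral membrane, was 21.9, 22 and 26.4 CPM with the E10 label, beside 143 and 123 (-2.51 ± 0.15, adjusted p = 4.56e-11). Slc4a11 was 2.81 and 3.21 CPM with the E13 label and 0 in WT, at least 19.1-fold higher (adjusted p = 0.00458). Slc4a9 was 1.67, 2.1 and 1.11 CPM with the E10 label and 0.124 and 0.0446 with the E13 label, at least 12.6-fold apart, and was not called without either E13-labelled library (adjusted p = 0.057 and 0.114). Slc4a1 was 0, 0 and 0.494 CPM with the E10 label (-7.09 ± 0.93) and 0.0413 and 0 with the E13 label, at least 128-fold lower than in WT, as blood markers were at most 0.000883% of counts in these groups; their part in the result was not tested.

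Cftr was 18.5, 21.9 and 19.4 CPM with the E10 label, beside 78.1 and 79 in WT, and fell by 1.98 on the log2 scale (SE 0.19, adjusted p = 3.22e-08). With the E13 label it was 136 and 131 CPM, a change of 0.77 ± 0.21 below the fold minimum. The direct difference between the deletion groups was -2.75 ± 0.2. Slc12a2, which supplies chloride to Cftr, was 61.5, 93.3 and 80.8 CPM with the E10 label, beside 179 and 173 in WT (-1.16 ± 0.21, adjusted p = 6.55e-05). Slc12a7, a K-Cl cotransporter, was 30.5, 35.8 and 26.6 CPM with the E10 label and 254 and 257 with the E13 label, beside 109 and 94.5 in WT, changes of -1.71 ± 0.21 and 1.33 ± 0.23. Slc26a9 was higher than its WT levels of 2.57 and 1.09 CPM in both groups, at 12, 15.5 and 10.4 CPM (2.78 ± 0.59) and 13.3 and 14 CPM (2.89 ± 0.61). Slc26a1 was at most 0.2 CPM with the E10 label, at least 56.4-fold lower than its 18.7 and 12.3 CPM in WT.

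**Figure D4:**
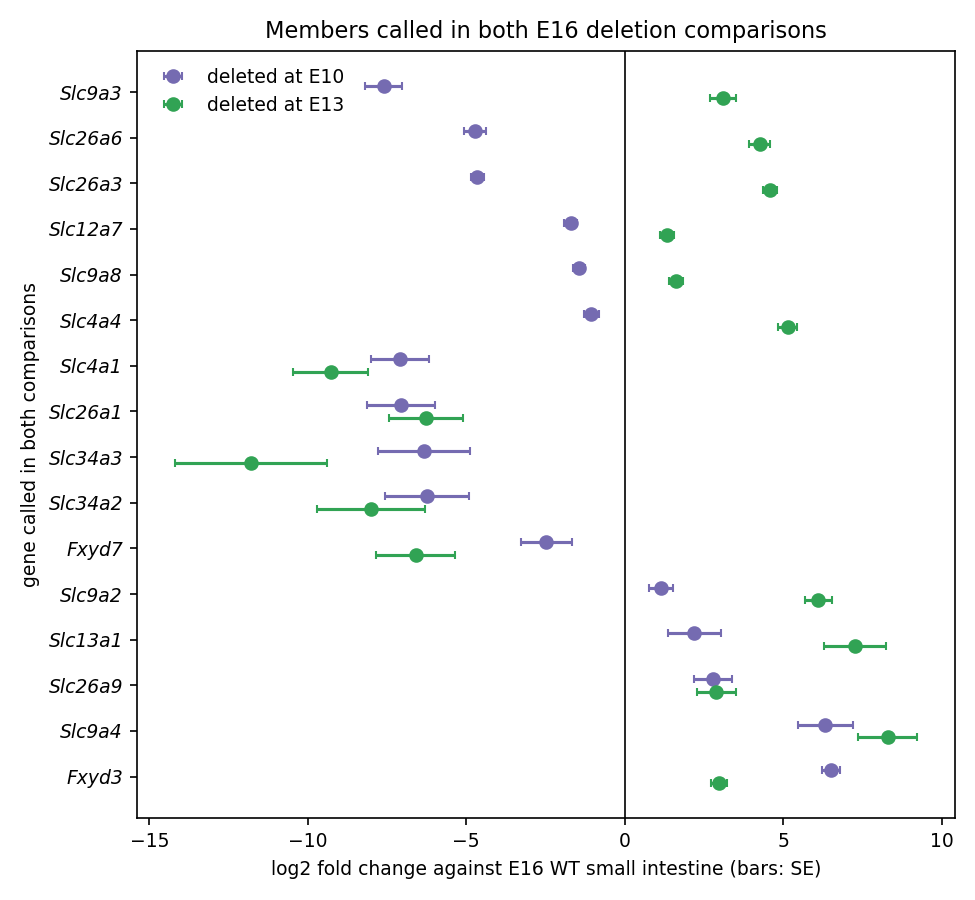
Log2 fold change against E16 WT small intestine (horizontal axis, bars are SE) of 16 of the 18 members called in both E16 deletion comparisons, which share the same 2 WT libraries. One set of points is the group labelled deleted at E10 (3 libraries) and the other that labelled deleted at E13 (2 libraries). Slc9a3, Slc26a6 and Slc26a3 lie at -7.61, -4.73 and -4.65 for E10 and at 3.1, 4.25 and 4.59 for E13, while Fxyd3 lies above 0 in both.

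Of the phosphate carriers, Slc34a2 was 0, 0 and 4.32 CPM with the E10 label and 0.331 and 0.401 with the E13 label, beside 89.3 and 102 in WT, log2 fold changes of -6.23 ± 1.32 and -8.01 ± 1.7 (adjusted p = 0.00072 and 0.000996). Slc34a3 was 0, 0.252 and 0.494 CPM with the E10 label and 0 in both E13-labelled libraries, where it was at least 142-fold lower than its 19.7 and 16.9 CPM in WT. The Slc13 carriers differed. Slc13a1 was 349 and 331 CPM with the E13 label, beside 2.52 and 1.91 in WT (7.26 ± 0.97, adjusted p = 3.07e-05). With the E10 label it was 15, 14.3 and 0 CPM, so that the groups overlapped, and the call (2.19 ± 0.83, adjusted p = 0.0354) was lost without E10-labelled replicate 1 or 2 or either WT library (adjusted p = 0.0836 to 0.157), in DESeq2 (adjusted p = 0.369) and with only the 2 groups fitted (adjusted p = 0.161). Without replicate 3 it was 2.72 (adjusted p = 1.22e-05). Slc13a2 was 2.94, 1.59 and 0.741 CPM with the E10 label, beside 5.99 and 5.46 in WT (-1.58 ± 0.52, adjusted p = 0.0149), and was not called without WT replicate 1 (adjusted p = 0.0629) or E10-labelled replicate 2 (adjusted p = 0.0601) or by DESeq2 (adjusted p = 0.219).

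In E18 embryos labelled deleted at E15, Slc9a4 and Fxyd3 were again higher than in WT, and Slc13a1, Slc13a2 and the scaffold Slc9a3r1 were lower. Slc34a2 and Slc34a3 were also called lower, but neither call held when single libraries were left out. Cftr, Slc9a3 and Atp1b1 were not called. In counts, 4 of 64 members were higher and 15 lower, beside 7.79% and 9.7% of all genes (17.5% either way), with a member median of -0.64 on the log2 scale, or -0.21 with genes at their bound, against 0.0 for all genes. The count of 19 was 11 without WT E18 replicate 2, and 10 without either of the 2 deletion libraries.

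Slc9a4 was 114 and 121 CPM with the E15 label against 0 and 0.329 in WT (9.21 ± 1.01 on the log2 scale, adjusted p = 4.24e-06). Fxyd3 was 64.6 and 61.7 CPM against 2.79 and 3.9 (4.21 ± 0.28, adjusted p = 1.93e-09). Slc12a2 was 269 and 286 CPM against 137 and 128, a change of 1.06 ± 0.23 that was under the fold minimum with RLE scaling or DESeq2 (0.94 in both). Slc26a9 was 0.724 and 0.382 CPM against 0 in WT, at least 2.68-fold higher, and was not called without WT replicate 2 (adjusted p = 0.0647). Slc13a1 fell from 347 and 342 CPM in WT to 16.7 in both deletion libraries (-4.36 ± 0.82, adjusted p = 0.00122 in edgeR and 0.143 in DESeq2). Slc13a2 fell from 1190 and 1250 CPM to 131 and 123 (-3.26 ± 0.45, adjusted p = 3.66e-05).

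Slc34a2 was 0.207 and 0.268 CPM with the E15 label against 6.25 and 5.98 in WT (-4.64 ± 1.59, adjusted p = 0.0376), and was not called without any 1 of the 4 libraries (adjusted p = 0.0899 to 0.185) or by DESeq2 (adjusted p = 0.176). Slc34a3 was 0 with the E15 label against 0.74 and 1.32, at least 7.62-fold lower. This call was lost without WT replicate 2 or either deletion library (adjusted p = 0.0924 to 0.154). Fxyd5 fell from 23.8 and 29.2 CPM to 0.517 and 0.918 (-5.18 ± 0.96, adjusted p = 0.000357). The 6 immune markers made up 0.0559 to 0.0587% of counts in WT at E18 and 0.0119% with the E15 label, where Csf1r had at most 3 counts in each library, and the 6 epithelial markers 0.61 to 0.624% and 1.04 to 1.11%; their part in the result was not tested. Slc9a3r1 fell from 1900 and 1950 CPM to 731 and 694 (-1.43 ± 0.18, adjusted p = 6.63e-06), Slc12a7 from 452 and 463 to 224 and 218 (-1.05 ± 0.22), and Slc26a3 from 417 in both to 195 and 209 (-1.05 ± 0.19; -1.0 and not called without deletion replicate 1). Slc26a6 was 576 and 543 CPM against 1020 and 984, a change of -0.84 ± 0.3 below the fold minimum. Cftr was 307 and 342 CPM against 261 and 263, Slc9a3 was 88 and 82.6 against 120 and 117, neither of them called (adjusted p = 0.296 and 0.387).

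In adult ileal villi, the knockout-labelled libraries again had more Slc9a4 and Fxyd3 than controls, and less Slc13a1, Slc34a2 and Slc26a6. Of the 44 members tested, 3 were higher and 15 lower, beside 8.41% and 12% of all genes (20.4% either way), with a median of -0.48, the same with genes at their bound, against 0.01 for all genes. The count of 18 was 9 without knockout replicate 1 and 10 without knockout replicate 2.

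Slc9a4 was 52.8 and 35.9 CPM in knockout-labelled villi against 1 and 0.51 in controls (5.88 ± 0.39, adjusted p = 0.00227). Fxyd3 was 21.1 and 26.1 CPM against 4.82 and 5.1 (2.25 ± 0.19, adjusted p = 0.00327). Slc26a4, the anion exchanger pendrin, was 18 and 25.3 CPM against 0.751 and 1.81 (4.05 ± 0.44, adjusted p = 0.00547). These 3 were the members called higher, and none of their groups overlapped. Slc13a1 was 0.455 and 1.28 CPM against 376 and 386, a fall of 8.89 ± 0.45 on the log2 scale (adjusted p = 0.00132). Slc34a2 was 56.9 and 82.4 CPM against 661 and 692 (-3.28 ± 0.23), Slc26a6 was 49.1 and 112 against 691 and 633 (-3.04 ± 0.43), and Slc9a3r1 was 507 and 725 against 2220 and 2440 (-1.92 ± 0.23).

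Smaller changes were those of Slc13a2, at 131 and 155 CPM against 536 and 428 (-1.75 ± 0.18), and Slc12a7, at 129 in both against 284 and 255 (-1.06 ± 0.12), which was not called without control replicate 1 (-0.98), without knockout replicate 1 (adjusted p = 0.0501) or with all 31 libraries in one fit (-0.94). The bicarbonate cotransporter Slc4a5 was 0.497 and 0.214 CPM against 9.32 and 5.67 (-4.28 ± 0.51, adjusted p = 0.00639). Slc34a3, Slc4a11 and Fxyd5 were at the floor in knockout-labelled villi, at least 15.8-fold, 9.29-fold and 11.2-fold lower than in controls. These 3 calls were lost without either knockout library (adjusted p = 0.0502 to 0.0777). Slc26a3 was 151 and 125 CPM against 181 and 122, and Slc9a3 was 53.9 and 107 against 183 and 95.8. The groups overlapped for both, and neither was called. Neural markers were 0.0234 to 0.0312% of counts in knockout-labelled villi and 0.000558 to 0.0011% in controls, immune markers 0.0304 to 0.0335% and 0.067 to 0.226%, and epithelial markers 1.76 to 1.97% and 0.891 to 1.18%; their part in these results was not tested.

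**Figure D5:**
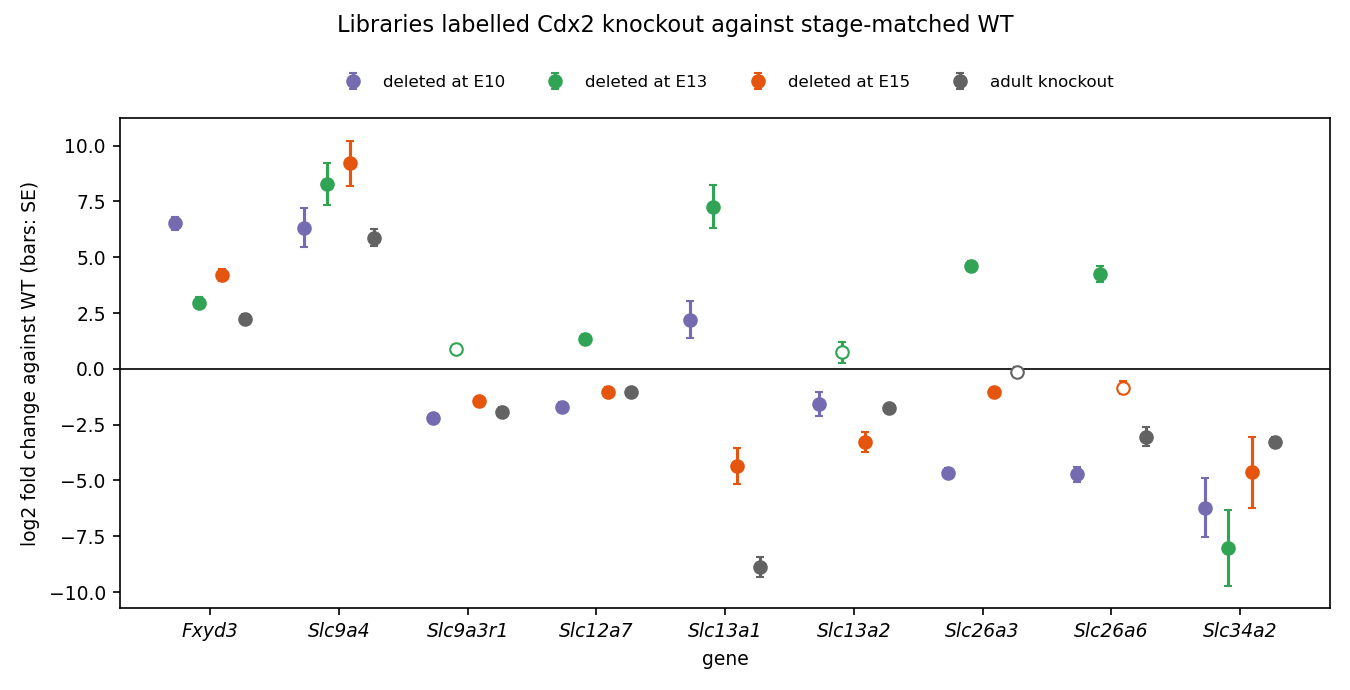
Log2 fold change against stage-matched controls (vertical axis, bars are SE) of 9 members in 4 comparisons: labelled deleted at E10 and E13 (same WT libraries), at E15 and in the adult (fitted apart). Controls were WT embryos and, in the adult, Cdx2f/f mice without Cre. Filled points were called and open points were not. Slc9a4 and Fxyd3 lie above 0 in each comparison and Slc34a2 lies below 0 in each, whereas Slc26a3 and Slc26a6 lie below 0 at E10 and above 0 at E13.

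The 36 other genes of ion transport, a list of channels, pumps and regulators that are no members, moved in counts as follows. Labelled deletion at E10 gave 16 higher and 14 lower, beside 23.9% and 27.6% of all genes. Deletion labelled E13 gave 20 higher and 4 lower, beside 18.7% and 20.8%, and that labelled E15 gave 12 higher and 4 lower, beside 7.79% and 9.7%. In the adult 6 were higher and 4 lower of 28 tested, beside 8.41% and 12% of all genes. Their medians were 1.0, 2.26, 0.12 and 0.05, or 0.5, 1.58, 0.07 and 0.05 with genes at their bound. In WT small intestine, 8, 14 and 12 were higher in the steps from E12 to E18, beside 11.3%, 13.7% and 20.1% of all genes, and 0, 2 and 4 were lower, beside 4.89%, 11.9% and 22.1%.

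Atp4a, the catalytic subunit of the gastric H,K-ATPase, was 10.2, 23.7 and 10 CPM with the E10 label and 365 and 364 with the E13 label, against 0.352 and 1.2 in WT at E16. It was 62.4 and 60.7 CPM with the E15 label against 1.4 and 1.15, and 11.6 and 11.7 in knockout-labelled adult villi against 0.188 and 0.113. The embryonic changes were 4.26 ± 0.71, 8.89 ± 0.78 and 5.61 ± 0.7 on the log2 scale, and the adult one was at least 65.1-fold. Car2, a carbonic anhydrase that supplies bicarbonate and protons, was 2650, 2650 and 1780 CPM with the E10 label and 3480 and 3550 with the E13 label, against 27.8 and 19.4, log2 fold changes of 6.64 ± 0.49 and 7.22 ± 0.51. It was also higher with the E15 label (1790 and 1830 CPM against 131 and 130) and in the adult (13.7 and 9.85 against 2.19 and 2.21). Gucy2c, the receptor of guanylins that drives Cftr through cyclic GMP, was 2.34, 2.94 and 10.1 CPM with the E10 label against 404 and 415 (-6.44 ± 0.4, adjusted p = 5.87e-11).

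Pdzk1, a scaffold of brush border exchangers, fell from 710 in both WT libraries to 24.2 and 25.7 CPM with the E15 label and from 591 and 398 to 3.27 and 3.28 in the adult, log2 fold changes of -4.83 ± 0.32 and -7.23 ± 0.29. The vitamin D-responsive calcium genes S100g and Trpv6 were high with the E13 label. S100g was 13700 and 13500 CPM against 120 in both WT libraries, and Trpv6 was 618 and 610 against 1.26 and 1.31. The log2 fold changes were 6.83 ± 0.44 and 8.9 ± 0.59 (adjusted p = 2.37e-10 and 3.68e-10).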

How the data were processed

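RNA was read as 75 bp single-end libraries (SMARTer-Seq v4 for embryos, TruSeq V2 for adults, per the labels' protocols). The authors deposited unnormalized gene counts in a table of the whole series. The submitters' processing notes name STAR 2.5.3a, HTSeq, Bowtie2, MACS2 and mm9 without roles; the strand setting is not given in the sources used here. The 38 ATAC and 5 ChIP samples were not analysed here, and 2 count columns that match no sample were not used. Each adult column had 2 blank cells and was closed up; all 70 members lie above the first blank.

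Counts of 27 embryonic libraries (13 groups) were fitted together, and those of 4 adult libraries apart, with edgeR 4.0.16 in R 4.3.3 (TMM, filterByExpr with min.count 10, glmQLFit and glmQLFTest, Benjamini-Hochberg over 17239 and 12444 genes). SE is the absolute log2 fold change over the root of F. Groups with at most 3 counts in each library were taken as at the floor, and folds against them are lower bounds from 3 counts per library. On simulated data, 151 of 200 changed genes were recovered with 2 false calls for the E13-labelled contrast (17043 genes, with 67 of 100 at 4-fold and 84 of 100 at 8-fold). For the adult contrast, 179 of 200 were recovered with 14 false calls (12318 genes). The simulation changed only 200 genes in 1 group, whereas 39.5% and 20.4% of all genes were called in these contrasts, so its rates may not hold for them. Alternatives were DESeq2 1.42.0, RLE scaling, no count filter, no fold minimum, only the groups compared, 1 fit for all libraries, a replicate block and leaving out each library. Same-numbered libraries did not deviate together (correlations of -0.0226 to 0.0136 in embryos and -0.166 in adults), so the numbers were not taken to pair samples. Replicates differed by more than sampling noise (chi-square per degree of freedom 1.526 to 131.7).

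Genes named were 15 of 16 fixed as central to epithelial transport and, per comparison, up to 3 called members with the largest change in each direction; others are named as examples. Some members are not reported by name or drawn here, though counts over members include them. The members and lists were chosen with earlier results of these data known. Promoter windows come from RefSeq (GRCm38.p6), where 51 members matched by symbol.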

Additional observations from a re-analysis of the deposited data

Results flagged for a closer look

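Against E16 WT, 8 members, of which 6 are given here, were called lower with the E10 label and higher with the E13 label. Of all genes, 27.6% were called lower with the E10 label and 18.7% higher with the E13 label. The share of all genes with both calls is not given here. The lower call of Slc4a4 was lost under several alternatives given above, and DESeq2 called Slc9a3 against WT in neither group. Both comparisons use the same 2 WT libraries, so the deletion groups were also set directly against each other in edgeR, over all genes. The genes were picked for their opposite calls, so the sign of this difference was fixed by that choice. Its p-values are therefore no separate support. The difference, E10 minus E13 on the log2 scale, was -10.71 for Slc9a3 (adjusted p = 2.84e-09), -9.24 for Slc26a3 (4.27e-14) and -8.98 for Slc26a6 (1.11e-13). It was -6.2 for Slc4a4 (adjusted p = 2.09e-13). For Slc12a7 and Slc9a8 it was -3.04 each (adjusted p = 1.27e-10 and 4.14e-11). Every library labelled deleted at E10 was below every library labelled deleted at E13 for these 6 genes, an order that the choice of genes also favoured. The 2 groups also differ in Cre line and in tamoxifen, which cannot be told apart from the labelled age of deletion.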

How the results depend on the processing

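With only the groups compared in the fit, 3 members in place of 14 were called at E14 against E12, and 25 in place of 16 between forestomach and hindstomach. With 1 library left out at a time, called members numbered 10 to 26 at E14 against E12 (26 without small intestine E12 replicate 2), 16 to 22 at E16 against E14, 30 to 32 at E18 against E16, 28 to 34, 22 to 26 and 13 to 15 in the organ comparisons, 29 to 32 and 26 to 31 for deletion labelled at E10 and E13, 32 to 36 between these, 10 to 13 for E15 and 9 to 16 in the adult. With the replicate number as a block, the counts were 16, 22 and 35 for the 3 age steps, 34, 29 and 16 for the organs, 30 and 29 for E10 and E13, 35 between them, 17 for E15 and 17 in the adult. In the adult, where same-numbered libraries had a correlation of -0.166, the crossed pairing as a replicate block, chosen after seeing the data, gave 20. Of the counts of called members under the alternatives, 114 stayed within 1.5 times the reported count and 9 did not. Where depth is low, as in forestomach at E16 (3 counts are 0.459 to 0.463 CPM), genes near 0 cannot be ordered.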

Other observations

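Among values not yet given, Slc26a2, a sulfate carrier, was 173 and 164 CPM in the libraries labelled deleted at E13 and 40.2 and 40 CPM in WT at E16. Slc4a3 was highest in stomach, at 25.2 and 22.4 CPM in forestomach at E16, and at most 0.165 CPM in small intestine at E18. Slc4a1ap, which the symbol pattern catches although it encodes no transporter, was between 14.5 and 32.5 CPM in all embryonic libraries and was called in none of the comparisons.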
